A study of Mus musculus with 3 samples.

Results

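The pigment cell identity genes described here are 10 genes that mark melanocytes and their precursors: the transcription factor genes Mitf, Sox10 and Pax3, the receptor genes Kit and Mc1r, the melanin enzyme genes Tyr, Tyrp1 and Dct, and the melanosome protein genes Mlana and Gpnmb. They were taken by symbol, and all 10 were measured, with 11 probe sets among the 19938 genes that could be named on the array. The RNA came from mouse sarcoma cells that carry an inducible EWS/ATF1 transgene. This fusion couples the amino-terminal end of EWSR1, an RNA-binding protein, to ATF1, a factor of the CREB family. The strain is a mix of C57/BL6, 129 and ICR, and the labels do not name the promoter that drives the transgene. Of the 3 arrays, each a group of its own, 1 holds RNA of a tumor taken from a mouse that received doxycycline for 3 months. Another holds RNA of cultured tumor cells 24 h after exposure to 0.2 microg/ml doxycycline, and the last holds RNA of the cultured cells with 0 microg/ml at the same time. The cultures share an identifying number in the labels, and the tumor has a different one. By their names all groups carry the transgene, so no array stands for cells without it.

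Pigment cells arise from the neural crest, and Mitf is the regulator at the centre of their identity. Sox10 and Pax3 switch on Mitf, and the signal of the melanocortin receptor Mc1r reaches Mitf through cAMP and CREB family factors. MITF protein in turn binds a short E-box in the promoters of the melanin enzyme genes and of melanosome genes. Human clear cell sarcoma, the tumor that carries this fusion, is known for expressing MITF and other melanocyte genes. The question asked of the values below is which of these genes were measured in the mouse cells and whether they differed between the arrays.

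The promoters of Mitf and of the tyrosinase family are shown because they hold letters known to be read by CREB family factors or by MITF. RefSeq (GRCm38.p6) gives promoter windows, from 250 bases before to 50 after a gene start, for 7 of the 10 genes. Mitf has 3 such starts, and the table does not say which transcript each belongs to. The 250 bases before the start farthest downstream hold the palindrome TGACGTCA, the full cAMP response element to which CREB and ATF1 bind. The same stretches of Tyr, Tyrp1 and Dct hold the E-box CATGTG or its reverse complement CACATG. The sequences run 5′ to 3′ toward the gene start, and the capitals mark TGACGTCA in Mitf and the E-box in the other genes.
Mitf, start 3, chr6:97991533-97991782 (+ strand): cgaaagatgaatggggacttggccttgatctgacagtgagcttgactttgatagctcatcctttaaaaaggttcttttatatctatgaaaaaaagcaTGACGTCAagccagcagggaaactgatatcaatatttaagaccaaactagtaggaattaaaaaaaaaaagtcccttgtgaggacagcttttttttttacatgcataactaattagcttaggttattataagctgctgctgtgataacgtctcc
Tyr chr7:87493513-87493762 (- strand): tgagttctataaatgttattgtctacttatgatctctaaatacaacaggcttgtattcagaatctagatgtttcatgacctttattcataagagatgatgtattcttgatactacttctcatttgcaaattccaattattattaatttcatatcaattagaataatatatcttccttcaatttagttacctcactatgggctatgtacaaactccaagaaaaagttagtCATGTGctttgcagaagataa
Tyrp1 chr4:80833963-80834212 (+ strand): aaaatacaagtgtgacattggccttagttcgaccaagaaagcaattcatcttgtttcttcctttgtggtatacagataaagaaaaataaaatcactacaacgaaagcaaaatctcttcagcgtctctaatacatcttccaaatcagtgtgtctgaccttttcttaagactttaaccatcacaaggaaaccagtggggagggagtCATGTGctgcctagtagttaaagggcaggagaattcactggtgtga
Dct chr14:118052247-118052496 (- strand): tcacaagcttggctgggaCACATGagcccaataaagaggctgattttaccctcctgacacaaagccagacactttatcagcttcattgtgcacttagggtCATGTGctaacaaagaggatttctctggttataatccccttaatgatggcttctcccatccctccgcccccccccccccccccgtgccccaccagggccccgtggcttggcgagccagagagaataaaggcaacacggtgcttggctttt

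The response element of Mitf began 153 bases before the third start, and neither of the other Mitf starts had TGACGTCA or its shorter form TGACG, searched on both strands. The 2 TGACG matches in Mitf lie within TGACGTCA and are not separate sites. TGACGTCA was present in 1.79% of all 32851 promoter windows and TGACG in 20.8%. Among the 7 genes with a window, Mitf alone held either form. The E-box began 21 bases before the start of Tyr, 46 before that of Tyrp1, and 232 and 150 before that of Dct. Mc1r held it at 62 and 51 bases. Thus 4 of the 7 genes (57.1%) had the E-box, against 15.9% of the 27025 genes with a window, and Mitf, Kit and Gpnmb had none in theirs. The E-boxes and the response element lie in windows of different genes, so they could not overlap. A match of letters is a description of the window and does not show that a factor binds there.

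**Figure D1:**
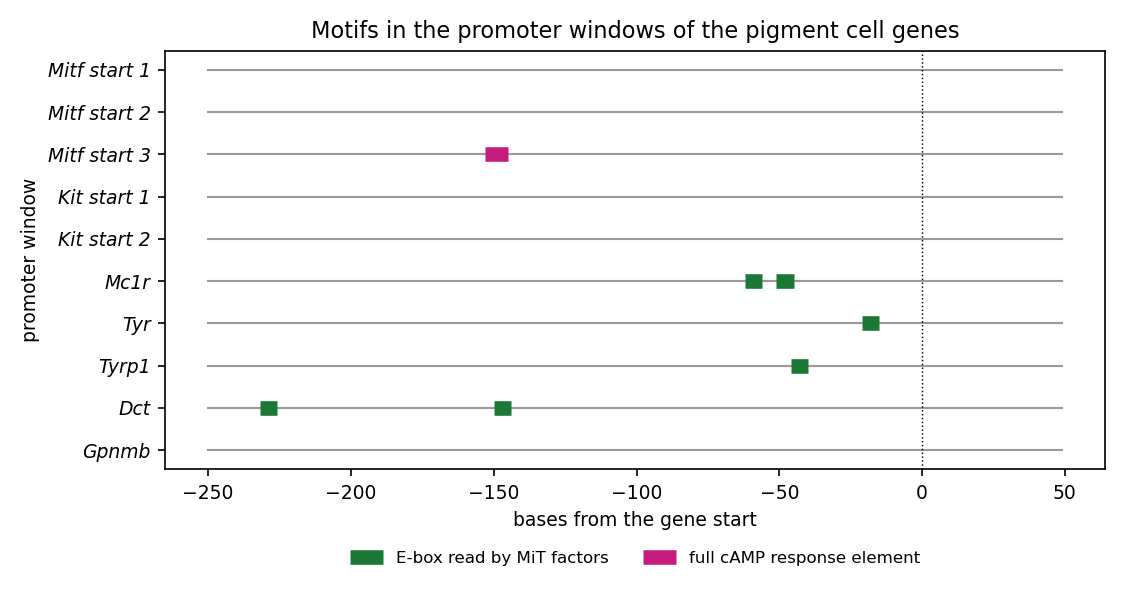
Positions of the E-box (CATGTG or CACATG, green) and of the full cAMP response element (TGACGTCA, pink) in the 10 RefSeq promoter windows of 7 pigment cell genes. The x axis gives bases from the gene start (dotted line), and each horizontal line is a window of 300 bases; the E-box stands in Mc1r, Tyr, Tyrp1 and Dct, and the response element only in the third Mitf window.

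Before the genes themselves, the arrays need a description, because the array labelled control is bright for macrophage genes that are mostly dim on the array labelled tumor. Over all genes, 55.1% to 55.2% exceeded the median of a given array. Of 18 macrophage and osteoclast genes, 2 exceeded the array median on tumor, 3 on high doxycycline and 17 on control. Their summed intensities were 2228 on tumor, 3328 on high doxycycline and 35074 on control. Whether the arrays carry the right labels was not tested, and each direction given here is one between arrays known by their labels. The fusion partner genes Atf1 (933, 1063 and 1189 on tumor, high doxycycline and control) and Ewsr1 (1624, 1650 and 1660) differed little. Fos, named in the title of the series, had 302, 1234 and 1114. The labels do not say whether these mouse probe sets read the transgene. Both comparisons with control use the same array, and with 1 array per group no difference was tested, no p-value is given and no replicate error exists. The only internal spread is the disagreement between probe sets of 1 gene, which is not an error between arrays. It was taken only over probe sets whose brighter array exceeded its median, so most of the 10 genes lie outside the range it covers. The median log2 size of this disagreement was 0.38 when tumor was set against control, 0.37 when high doxycycline was set against control, and 0.055 for the remaining pair of arrays. In that pair 34.6% of probe sets had exactly equal values. The share was 16.9% for tumor against control and 21.6% for high doxycycline against control. A value above this disagreement is therefore not shown to be a difference between the samples. In bulk RNA, fewer cells of a type and less RNA per cell cannot be told apart.

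Of the 10 genes, 2 lay above the median of each array on their brightest probe set, namely Mitf and Gpnmb. Over all genes, 55.1% to 55.2% lay above the median of a given array. Mitf had an intensity of 1018 on tumor, 1344 on high doxycycline and 1281 on control. These values were 4.63, 5.93 and 5.12 times the array medians of 219.8, 226.7 and 250.02, but only on the brighter of its 2 probe sets. Sox10 and Kit lay just above it on control, at 1.01 and 1.02 times the median, and the other 6 genes lay above it on none. Those 6 genes, Pax3, Mc1r, Tyr, Tyrp1, Dct and Mlana, had intensities of 55.1 to 178.7 on tumor, 55.1 to 178.7 on high doxycycline and 55.1 to 210.6 on control. A low intensity on an array of this kind does not show that a transcript is absent, and levels of different probe sets cannot be ranked against each other.

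**Figure D2:**
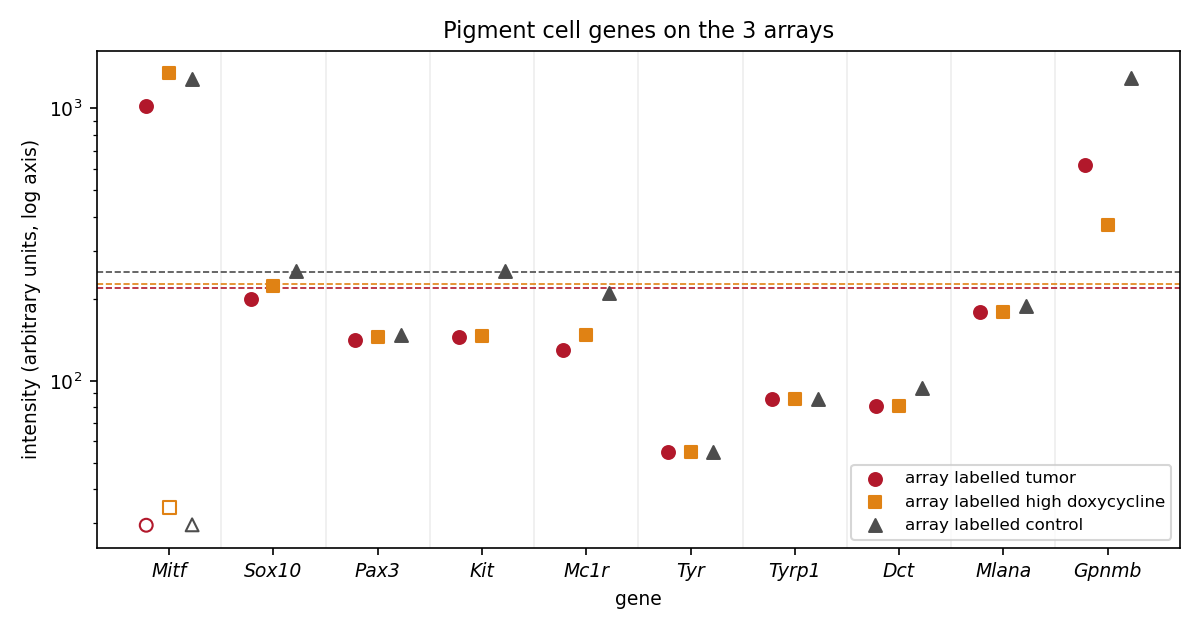
Intensity (log axis) of the 10 pigment cell genes on the arrays labelled tumor (red circles), high doxycycline (orange squares) and control (grey triangles), with dashed lines at the array medians and open symbols for the dimmer Mitf probe set. Mitf, between 1018 and 1344, and Gpnmb lie above all 3 medians, while Tyr and Tyrp1 have the same value on every array.

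Among the regulators, Mitf differed by less than 2-fold between the arrays. Its log2 difference was -0.33 for tumor against control (1.26-fold), which became -0.58 under quantile normalization. It was 0.07 for high doxycycline against control, where the sign turned to -0.22 under the same setting, and -0.40 for tumor against high doxycycline (1.32-fold). As reported, both differences from control lay below the median disagreement between probe sets of a gene, which the quantile value of -0.58 exceeds. The difference between tumor and high doxycycline lay above the 90th percentile of that disagreement, 0.32 over 649 genes. Mitf has another probe set, annotated to the same 3 RefSeq mRNAs, which had 29.5 on tumor, 34.3 on high doxycycline and 29.7 on control, with 3.26%, 5.24% and 2.78% of probe sets dimmer. The Mitf level therefore rests on 1 probe set, and the labels do not say which Mitf transcripts it detects. The mean over both probe sets was -0.30 for tumor against high doxycycline.

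Sox10, the SOX factor of neural crest and glia that activates Mitf, had 200.2 on tumor, 222.2 on high doxycycline and 252.7 on control. It was close to the array median in each case, and its log2 differences were -0.33 for tumor against control and -0.19 for high doxycycline against control. Pax3, the paired box factor of neural crest and muscle precursors, had 141.4, 144.6 and 147.4 in the same order. Its differences were at most 0.06 in size and turned positive under both other scalings.

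The receptors were dimmer on tumor and high doxycycline than on control by less than 2-fold. Kit, the receptor of stem cell factor that melanoblasts and mast cells need, had 144.4 on tumor, 146.2 on high doxycycline and 253.8 on control. The log2 difference was -0.81 for tumor against control and -0.79 for high doxycycline against control, and the arrays labelled tumor and high doxycycline lay 0.02 apart. The summed intensity of mast cell genes was also lower on those arrays: their 9 genes summed to 837.1 on tumor, 887.3 on high doxycycline and 1582 on control, with Cpa3, the mast cell carboxypeptidase, at 38.3, 38.5 and 119 and the histamine enzyme gene Hdc at 139.5, 155 and 452. Cpa3, below the median on every array, and Hdc had the largest differences from control in this list. The list median was -0.74 for tumor against control and -0.50 for high doxycycline against control. Ms4a2 had 34.2 on each array, and Cma1 (-0.36) and Gata2 (-0.37) differed less for tumor against control. Of these 9 genes, 1 lay above the array median on tumor, 1 on high doxycycline and 2 on control. Over all genes, 55.1% to 55.2% did on a given array. The part of mast cells in the Kit values was not tested. Mc1r, the receptor that answers melanocyte-stimulating hormone, had 130.1 on tumor, 147.0 on high doxycycline and 210.6 on control, with differences of -0.69 for tumor against control and -0.52 for high doxycycline against control.

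The melanin enzyme genes showed almost no difference between arrays. Tyr, which encodes tyrosinase and starts melanin synthesis, had 55.1 on each of the 3 arrays. Tyrp1, which encodes a related enzyme of the brown locus, had 86.1 on each. Dct, which encodes dopachrome tautomerase, had 81.2 on tumor, 81.2 on high doxycycline and 93.8 on control, a log2 difference of -0.20 in both comparisons with control. Equal values are a property of the deposited table and not of these genes alone. In it, 4314 of 28856 probe sets (15.0%) had the same value on all 3 arrays, 911 of them above every array median. The reason was not given in the sources used here, and an exact match is therefore not a measured lack of change. Mlana, a melanosome membrane protein gene, had 178.7 on tumor and high doxycycline and 187.8 on control, and its difference of -0.07 turned positive under both other scalings.

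Gpnmb was the only one of the 10 genes that differed by 2-fold between any pair of arrays. It encodes a transmembrane glycoprotein of melanosomes and lysosomes, which macrophages and osteoclasts make as well, and it is a known MITF target in melanocytes and osteoclasts. Gpnmb had 619.3 on tumor, 373.1 on high doxycycline and 1292 on control. It was dimmer by 2.08-fold on tumor than on control (log2 difference -1.06) and by 3.46-fold on high doxycycline than on control (-1.79). With no filter on brightness, 1 of the 10 genes was at least 2-fold dimmer and 0 were brighter in each of these comparisons. Over all genes without a filter, 6.82% were dimmer and 11.3% brighter for tumor against control, and 5.56% dimmer and 10.6% brighter for high doxycycline against control, so a count of 1 in 10 is not a result about the set. The filter used for the lists kept genes whose brighter array lay above its median, which 4 of the 10 passed, namely Mitf, Sox10, Kit and Gpnmb. Over all genes that passed it, 10.2% were dimmer and 18.6% brighter for tumor against control, and 8.46% dimmer and 17.5% brighter for high doxycycline against control. The tumor call was lost when the arrays were brought to a common median (-0.87) and with 64 added before the logarithm (-0.99).

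The macrophage genes were dimmer in the same comparisons. Their median log2 difference over all 18 genes was -3.70 for tumor against control and -3.24 for high doxycycline against control. Of 17 that passed the filter, 16 and 15 were at least 2-fold dimmer, against 10.2% and 8.46% of all genes. Most passed it only through control, the array where they are bright, so these counts lean toward dimmer calls. Lyz2, the lysozyme of macrophages, had 64.8 on tumor, 68.0 on high doxycycline and 3932 on control, and Acp5, an acid phosphatase of osteoclasts, had 128, 158 and 1125. Their part in the brighter Gpnmb of control was not tested. Between tumor and high doxycycline, Gpnmb was 1.66-fold brighter on tumor (log2 difference 0.73, above the 90th percentile of probe set disagreement), and the median of the macrophage genes was -0.15. Of those 18 genes, 17 were lower on tumor than on high doxycycline at any size, and Laptm5 was higher (0.25). Above the array median lay 2 on tumor (Cd68 and Ocstamp) and 3 on high doxycycline (Cd68, Ocstamp and Cd14). Mitf had a difference of -0.40 in this comparison.

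**Figure D3:**
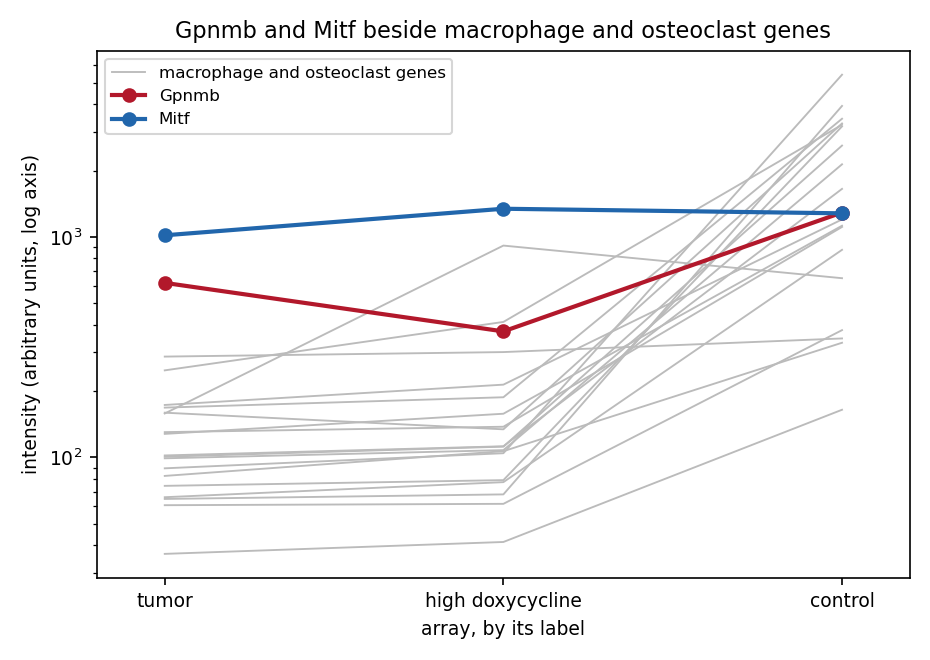
Intensity (log axis) of Gpnmb (red), Mitf (blue) and 18 macrophage and osteoclast genes (grey, 1 line per gene) on the arrays labelled tumor, high doxycycline and control. Gpnmb is at 619.3 on tumor, 373.1 on high doxycycline and 1292 on control, and 2, 3 and 17 of the grey genes lie above the array median in that order.

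By their centred log2 values over the 3 arrays, the genes most like Gpnmb among 12112 genes were Capg, an actin-capping protein gene (688.7 on tumor, 405.1 on high doxycycline and 1406 on control, distance 0.027), Ahnak, a scaffold protein gene (834.5, 529.8 and 1735, distance 0.063), and Scarna13, a small nuclear RNA gene of Cajal bodies (1036, 623.9 and 2343, distance 0.097). With 3 points per gene, likeness of this kind describes the arrays and no more.

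Over all 10 genes without a brightness filter, the median log2 difference was -0.27 for tumor against control, -0.13 for high doxycycline against control and -0.01 for tumor and high doxycycline. The medians over all genes were -0.004, 0 and 0. Of the 10 genes, 8 were dimmer at any size on tumor than on control, 0 brighter and 2 equal, where 50.3% of all genes were dimmer. On high doxycycline 7 were dimmer than on control, 1 brighter and 2 equal, where 44.5% of all genes were dimmer. These counts depend on the scaling: at a common median 6 were dimmer and 4 brighter on tumor than on control, and 5 dimmer and 5 brighter on high doxycycline than on control. A shift of the arrays to a common median would add 0.19 to each tumor difference and 0.14 to each high doxycycline difference from control, which is larger than the differences of Pax3 and Mlana. With it, the median of the 10 genes became -0.08 for tumor against control and 0.01 for high doxycycline against control, where the sign turned. Under quantile normalization the medians were -0.08 and -0.06, so neither sign turned, and 6 genes were dimmer and 4 brighter in both comparisons. Between tumor and high doxycycline, 0 of the 10 genes differed by 2-fold, where 0.913% of all genes were brighter on tumor and 1.15% dimmer without a filter, and 1.60% and 1.94% of those that passed it.

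**Figure D4:**
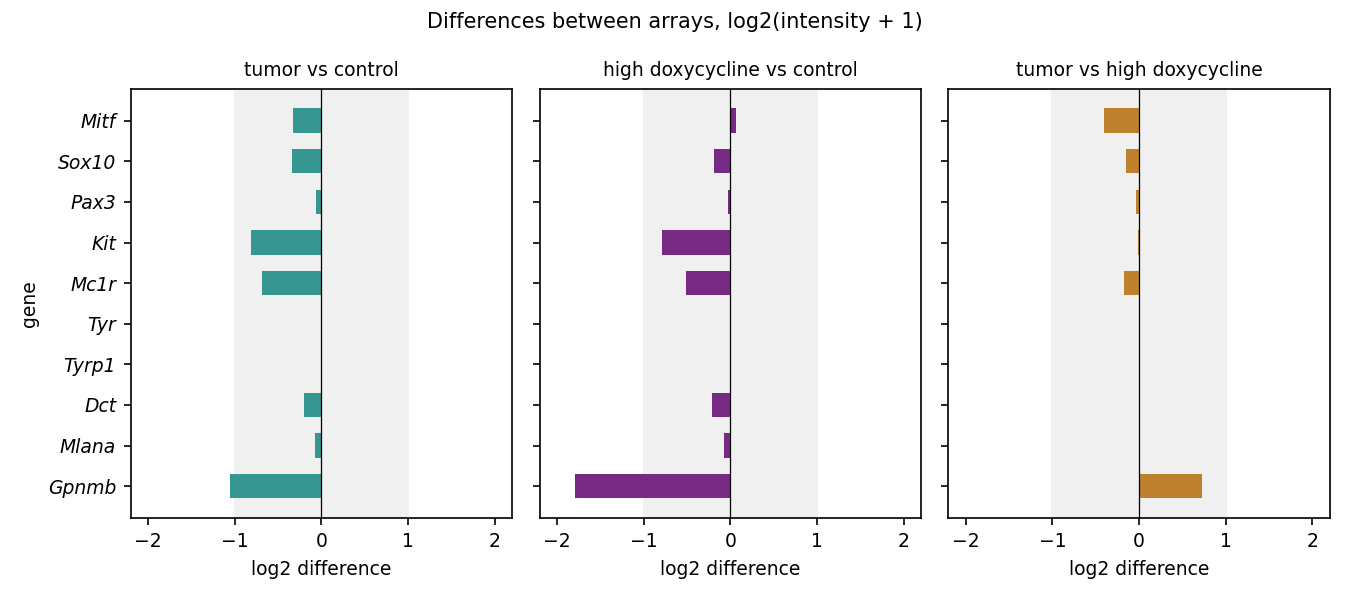
Log2 differences of the 10 pigment cell genes for tumor against control, high doxycycline against control and tumor against high doxycycline, on log2(intensity + 1). The grey band marks differences under 2-fold; only the Gpnmb bars in the comparisons with control pass it, at -1.06 and -1.79.

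Most of the wider melanosome genes that are particular to pigment cells lay near or below the array medians. Of 11 melanosome matrix, channel and transporter genes, 5 lay above the array median on tumor, 5 on high doxycycline and 3 on control, where 55.1% to 55.2% of all genes did. The amyloid matrix gene Pmel had 251 on tumor, 243 on high doxycycline and 243 on control, close to the array medians. The transporter genes Slc45a2, Oca2 and Slc24a5, the receptor gene Gpr143 and the channel gene Trpm1 lay below the median on all 3 arrays. Those at least 2-fold different are made in many cell types. Cd63, a tetraspanin of late endosomes, had 8885 on tumor, 8974 on high doxycycline and 3987 on control. Slc7a11, the cystine importer gene, had 247, 435 and 118, and the endolysosomal channel gene Tpcn2 had 525, 439 and 1076. Of 5 that passed the filter, 2 were brighter and 1 dimmer on tumor than on control, against 18.6% and 10.2% of all genes, and the dimmer call (Tpcn2) was lost at a common median. The same counts held for high doxycycline against control, against 17.5% and 8.46%. The medians over the list were -0.11 and -0.04, and both turned positive under both other scalings (0.07 and 0.10 at a common median).

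Genes that build melanosomes and related organelles in most cells were bright. Of 19 genes for melanosome biogenesis and transport, 16 lay above the median on tumor, 15 on high doxycycline and 15 on control, where 55.1% to 55.2% of all genes did. The exceptions on all arrays included the melanosome transport genes Rab27a and Rab38. Members of a single sorting complex differed in opposite directions. Its subunit genes Bloc1s5 (979.9 on tumor, 964 on high doxycycline and 290.1 on control) and Bloc1s3 (1761, 1658 and 646) were brighter than on control, and Dtnbp1, the dysbindin gene (726, 726 and 1863), was dimmer. No other gene of this list differed by 2-fold in the values as deposited. Of 16 that passed the filter, 2 were brighter and 1 dimmer on tumor than on control, against 18.6% and 10.2% of all genes. The same counts held among 15 for high doxycycline against control, against 17.5% and 8.46%. At a common median the brighter count for tumor against control became 3. The list medians were 0.25 for tumor against control and 0.01 for high doxycycline against control.

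Among 16 factors that act on Mitf or at its targets, 10 lay above the median on each array, where 55.1% to 55.2% of all genes did. They include Sox9, a SOX factor of the neural crest, with 2337 on tumor, 3167 on high doxycycline and 2888 on control. Irf4, which cooperates with MITF at the tyrosinase gene in human melanocytes and also acts in immune cells, differed most in the comparisons that include tumor, while Zeb2 differed more for high doxycycline against control (-1.61, against -1.32 for Irf4). Irf4 had 198 on tumor, 651 on high doxycycline and 1623 on control, so that tumor was 8.18-fold below control and 3.28-fold below high doxycycline. Zeb2, a zinc finger factor of neural crest and of macrophages, had 102, 105 and 324. Creb1, which shares its DNA element with ATF1, had 1264, 1094 and 549, and Snai2, a neural crest factor, had 371, 169.6 and 182. At 2-fold, 2 of 12 regulators that passed the filter were brighter and 2 dimmer on tumor than on control, against 18.6% and 10.2% of all genes. Of 11, 0 were brighter and 2 dimmer on high doxycycline than on control, against 17.5% and 8.46%, and the first count became 1 at a common median. Snai2 was brighter and Irf4 dimmer on tumor than on high doxycycline.

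The MiT kin of Mitf bind the same E-box. Tfe3 had 1083 on tumor, 1083 on high doxycycline and 846 on control, and Tfeb had 364, 364 and 413. Tfec, the member known from macrophages, had 119, 387 and 417, and was 3.24-fold dimmer on tumor than on high doxycycline and 3.49-fold dimmer than on control. Of the 18 macrophage genes, only Cd14 (158, 914 and 650.3) differed by 2-fold between tumor and high doxycycline. The median of that list was -0.15 in this comparison. The part of such cells in the Tfec values was not tested.

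Of 9 genes for ligands, receptors and modifiers of Kit, Mc1r and endothelin signalling, 7 lay above the median on each array, where 55.1% to 55.2% of all genes did. On their brightest probe set 0 differed by 2-fold in any comparison. Of all genes that passed the filter, 18.6% were brighter and 10.2% dimmer for tumor against control. The shares were 17.5% and 8.46% for high doxycycline against control, and 1.60% and 1.94% for tumor against high doxycycline. Under quantile normalization 1 gene was dimmer in both comparisons with control. With the mean of probe sets 1 gene, Pde4d, was brighter in both comparisons with control. Ednrb, the endothelin receptor gene of melanoblasts, had 1200.1 on tumor, 1459 on high doxycycline and 1052 on control. Kitl, the ligand gene of Kit, had 228, 228 and 379. Pde4d, a cAMP phosphodiesterase gene that limits the Mc1r signal, has probe sets that disagree. The brightest had 3937 on each array, while another had 2029 on tumor, 1834 on high doxycycline and 94.3 on control, a log2 difference of 4.41 for tumor against control. The last had 114.2, 175.6 and 114.2 in the same order.

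Of 11 reported MITF targets outside pigment, 10 passed the filter in both comparisons with control. On tumor 3 were at least 2-fold brighter and 2 dimmer than on control, against 18.6% and 10.2% of all genes, and on high doxycycline 2 were brighter and 2 dimmer, against 17.5% and 8.46%. Brighter on both were Hif1a, the hypoxia factor gene (6642 on tumor, 5501 on high doxycycline and 2087 on control), and Met, the hepatocyte growth factor receptor gene (1244, 1868 and 435). Cdkn2a, a cell cycle inhibitor gene, had 1164, 587 and 392 and passed 2-fold for tumor against control. Ppargc1a was counted on its brightest probe set, at 0.72 for tumor and 0.42 for high doxycycline against control. Its other probe set had 1.59 and 1.15, past 2-fold in both. The dimmer genes, Ctsk (99.1, 108 and 2137) and Acp5, are osteoclast genes that also stand in the macrophage list.

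**Figure D5:**
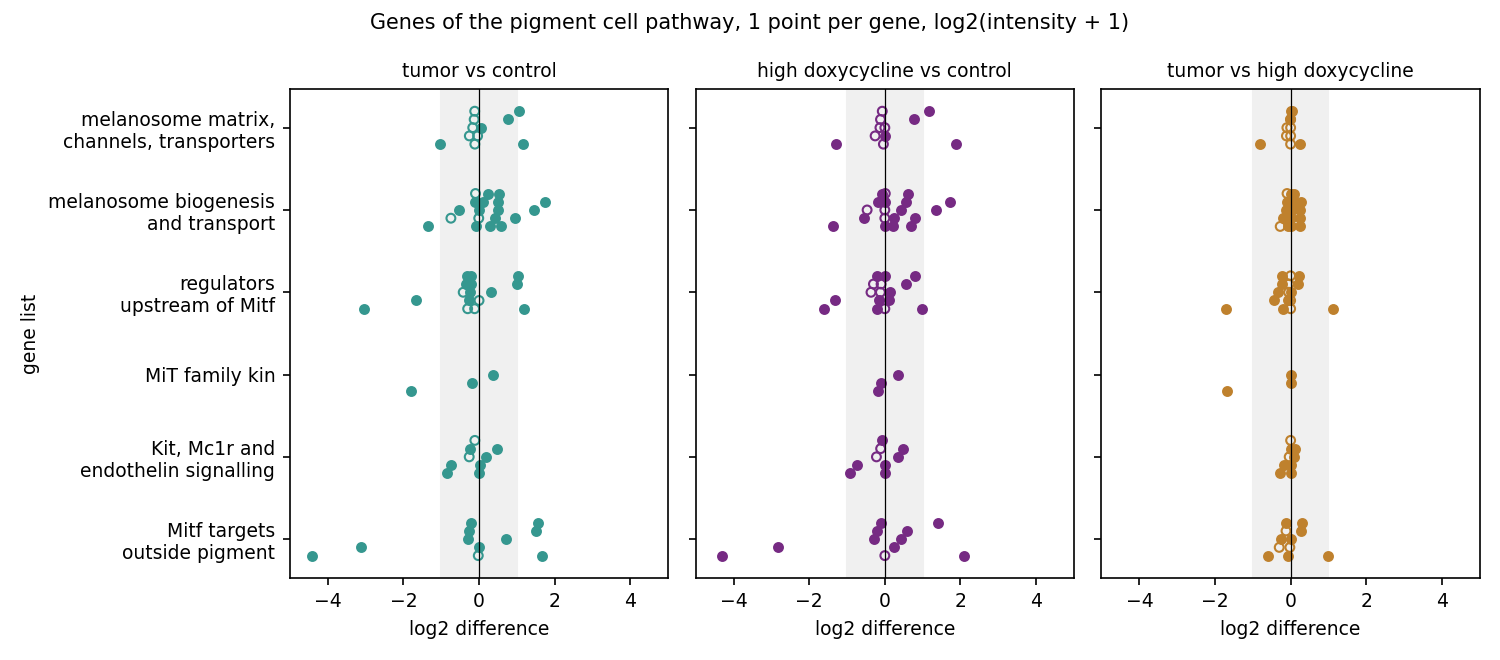
Log2 differences, 1 point per gene, of 6 lists around the pigment cell genes for tumor against control, high doxycycline against control and tumor against high doxycycline. Filled points have the brighter array above its median, open points do not, and the grey band marks differences under 2-fold; between tumor and high doxycycline only Irf4, Tfec and Snai2 lie outside it.

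Other cell types that make some of the 10 genes were looked for with their own markers. Over all genes, 55.1% to 55.2% lay above the median of a given array. Schwann cells make Sox10, and of 9 Schwann cell genes 2 lay above the median on tumor, 2 on high doxycycline and 5 on control. S100b (4156 on tumor, 4256 on high doxycycline and 3574 on control) and Pmp22 (11656, 13198 and 10586) lay above it on all 3. Gfra3 (169, 199.8 and 374), Mbp (154, 164 and 258) and Egr2 (149.9, 175 and 267) lay above it on control, and Gfra3 was 2.2-fold dimmer on tumor than on control, a call lost at a common median. Erbb3 and Mag were below the median on all arrays, as were Cdh19 and Foxd3, whose values were equal on each. Muscle precursors make Pax3, and of 6 of their genes only Met lay above the median, with Pax7 and Myod1 below it on each array. Of 6 genes of the retinal pigment epithelium and 8 keratinocyte genes, 0 lay above the median on any array. These markers, like the 10 genes, were measured once per array, and their part in any value was not tested.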

How the data were processed

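Biotin-labelled total RNA of 3 samples was measured on the Affymetrix MoGene-1_0-st-v1 array, per the labels. The authors deposited linear intensities, with a single value for each probe set. Their background correction, probe summary and normalization were not given in the sources used here. Precision is limited by the number of arrays. Of 28856 probe sets, 21789 have 1 symbol in the platform annotation, 1621 several and 5446 none. Only the first kind was used, and 21698 matched RefSeq by Entrez number with 0 symbols updated. Where a gene had several probe sets (999 genes), the brightest by mean was used. Differences are of log2(intensity + 1), so folds of dim genes are understated. The filter kept a gene whose brighter array exceeded the array median, and a call is a log2 difference of at least 1. Of 133 entries in 12 lists, 125 were measured, and 8 are not analysed here. The genes named are the 10 themselves, up to 4 bright genes per list and comparison at 2-fold, whole marker lists, the fusion partners, Fos and the 3 genes nearest in pattern to any of the 10 that differs by 2-fold. Values already seen guided the choice of the other list genes that are named. The members and lists were chosen with earlier results of these data known. Alternatives were 2 other scalings, the filter left out or set at percentile 75, the mean of probe sets, and pseudocounts of 16 and 64. Calculations used Python 3.11.15 with pandas 2.3.3 and were tested on simulated data.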

Additional observations from a re-analysis of the deposited data

How the results depend on the processing

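Of 42 recomputed counts over the 10 genes, 40 stayed at the same value. The exceptions are the dimmer genes for tumor against control, 1 (Gpnmb) as reported, which became 0 when the arrays were brought to a common median and 0 with a pseudocount of 64. Of 42 counts over all genes, 38 stayed within 1.5 times. With the filter at percentile 75, which tests fewer genes, 692 were dimmer for tumor against control, 571 were dimmer for high doxycycline against control, and 104 were brighter and 144 dimmer for tumor against high doxycycline. Of 504 list counts 29 moved by more than 1.5 times, all of them counts of 3 or fewer. Of 210 log2 differences of the 10 genes, 7 moved by more than the median disagreement between probe sets, all for tumor against high doxycycline. Many of the 210 could not move. The filter settings leave each difference as it is, and the mean of probe sets alters only Mitf. A turn of sign smaller than that disagreement, as for Mitf in high doxycycline against control, was not counted as a move. The Gpnmb difference for tumor against control ran from -1.29 under quantile normalization to -0.87 at a common median. No difference of at least 2-fold among the 10 genes changed sign. No paired analysis was possible because each group has 1 array. Most of the 10 genes lie below the array median, where a small difference cannot be told from the background of the array.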
